A study of Mus musculus with 13 samples.

Results

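The genes described here are 10 innate immune genes chosen by name. They are the Toll-like receptor genes Tlr1, Tlr2, Tlr4, Tlr7 and Tlr13, the co-receptor gene Cd14, the adaptor gene Myd88, and the inflammasome genes Nlrp3, Pycard and Casp1. All 10 were measured in every library, among 14078 genes, through 13 listed RefSeq transcripts. Their levels were read in whole adrenal glands of C57BL/6 mice. Star, whose product carries cholesterol into mitochondria for steroid synthesis, is deleted in these mice upon TAM. RNA sequencing covered 5 libraries from before TAM, 4 libraries from 24 hours after it and 4 libraries from 8 weeks after it, the series comparing before with 8 weeks. All 3 groups share the strain and tissue, and the labels give no Cre driver, sex, age or number of animals per library. No group in these samples received TAM without losing Star, so TAM, time and the loss of Star cannot be told apart. Nothing in the labels says that libraries of a group came from separate animals, so p-values measure only the spread between these samples, which may be technical.

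Toll-like receptors are membrane proteins that recognise molecules of microbes and of damaged cells, at the cell surface (Tlr1, Tlr2, Tlr4) or inside endosomes (Tlr7, Tlr13). All of these signal through the adaptor Myd88 to kinases and then to NF-kB and interferon regulatory factors, which switch on cytokine genes. Inflammasomes are assemblies in the cytosol: a sensor such as Nlrp3 binds the adaptor Pycard (also called ASC), which gathers caspase-1, and the active protease cleaves the precursors of interleukin-1 beta and interleukin-18 and the pore protein gasdermin D. In most tissues macrophages and their relatives are the main cells that carry these genes.

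After TAM, the 5 Toll-like receptor genes and the inflammasome genes Casp1 and Pycard were higher than before, while Myd88 and Nlrp3 did not pass the test. At 8 weeks 8 of the 10 genes passed as higher than before (edgeR quasi-likelihood test, adjusted p under 0.05), where 20.5% of all genes did. At 24 h 7 of 10 passed as higher than before, where 12.6% of all genes did. The median log2 fold change of the 10 genes was 1.68 at 8 weeks and 1.53 at 24 h, against 0.03 and 0.034 over all genes. Casp1 changed most, 8.05-fold higher at 8 weeks, followed by Tlr13 at 6.37-fold and Pycard at 4.36-fold. Both comparisons use the same before libraries. Between 8 weeks and 24 h 2 of 10 genes passed as higher, Casp1 and Pycard, where 10.1% of all genes did, and the median of the 10 was −0.05 against −0.026 over all genes.

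Several libraries stood apart from their groups. Listed reads per library ran from 17331673 to 27309429. Star stood at 3207 to 4239 FPKM before, 17.4 to 626 at 24 h and 85.9 to 202 at 8 weeks. Library 3 at 24 h held the lowest summed FPKM of medulla markers (18.6, against 1162 or more in every before library), of fat cell markers (50.2) and of red blood cell markers (15.96), and library 4 at 24 h held 115 FPKM of medulla markers. Library 1 at 8 weeks held 1829 FPKM of neutrophil markers, where the other 8-week libraries held 13.4 to 28.9, and 71.5 FPKM of B cell markers. Before library 1 held 179 FPKM of fat cell markers, where the other before libraries held 1022 to 1179. It held 7.42 FPKM of T cell markers, where those held 0.944 to 2.31. Without libraries 3 and 4 at 24 h, 10 genes passed at 8 weeks and 7 at 24 h, and without library 3 at 24 h and library 1 at 8 weeks 9 passed at each time. Both of these settings were chosen after seeing the data.

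Markers of macrophages rose in the same libraries, and so did those of some other cell types. All 10 macrophage marker genes were measured, and none was at 0 throughout a group. Of these, 9 passed as higher than before at 8 weeks and 8 at 24 h, where 20.5% and 12.6% of all genes did. Their summed level was 216 to 748 FPKM before, 1409 to 2438 at 24 h and 3240 to 6883 at 8 weeks, most of it from the lysozyme gene Lyz2. Summed dendritic cell markers, 6 of 6 measured, ran from 4.37 to 11.8 FPKM before, 23.3 to 37.6 at 24 h and 54.2 to 81.6 at 8 weeks. Most of the later sums came from Itgax, with 16.1 to 31.8 FPKM at 24 h and 48.0 to 75.9 at 8 weeks. Of the 6 genes, 1 passed as higher than before at 24 h, Itgax, and 4 at 8 weeks, beside the same shares of all genes. The 24 h count is near that share and is not read as a trait of the list. Zbtb46 was lower in mean at 8 weeks (2.10 FPKM) than before (3.28 FPKM) and did not pass (edgeR, log2 −0.45, adjusted p = 0.22). Summed neutrophil markers, 4 of 8 measured, ran from 1.57 to 61.3 FPKM before, 8.97 to 39.9 at 24 h and 13.4 to 1829 at 8 weeks. Fibroblast and capsule markers summed to 132 to 405 FPKM before, 520 to 923 at 24 h and 897 to 1629 at 8 weeks. For T cell markers the sums were 0.944 to 7.42, 6.00 to 14.3 and 11.2 to 35.7 FPKM. For B cell markers they were 1.51 to 5.02, 2.87 to 4.22 and 5.59 to 71.5 FPKM. Summed adrenal cortex markers, 6 of 6 measured, ran from 12580 to 15080 FPKM before, 4113 to 9960 at 24 h and 973 to 2421 at 8 weeks. In library 3 at 24 h the cortex markers Cyp11b1, Cyp11b2 and Mc2r stood at 1.07, 0.0883 and 0.132 FPKM. The before libraries held at least 1911, 91.97 and 201 FPKM of these genes, and every other library at least 177, 11.5 and 17.2 FPKM. The remaining cortex markers, Cyp11a1, Hsd3b1 and Nr5a1, stood at 983, 3024 and 104 FPKM in library 3 at 24 h. In the other 24 h libraries they held at least 2593, 1067 and 93.6 FPKM. The part of these cell types in the results below was not tested. In whole glands a change in the number of cells of a type and a change in RNA per cell cannot be told apart.

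**Figure D1:**
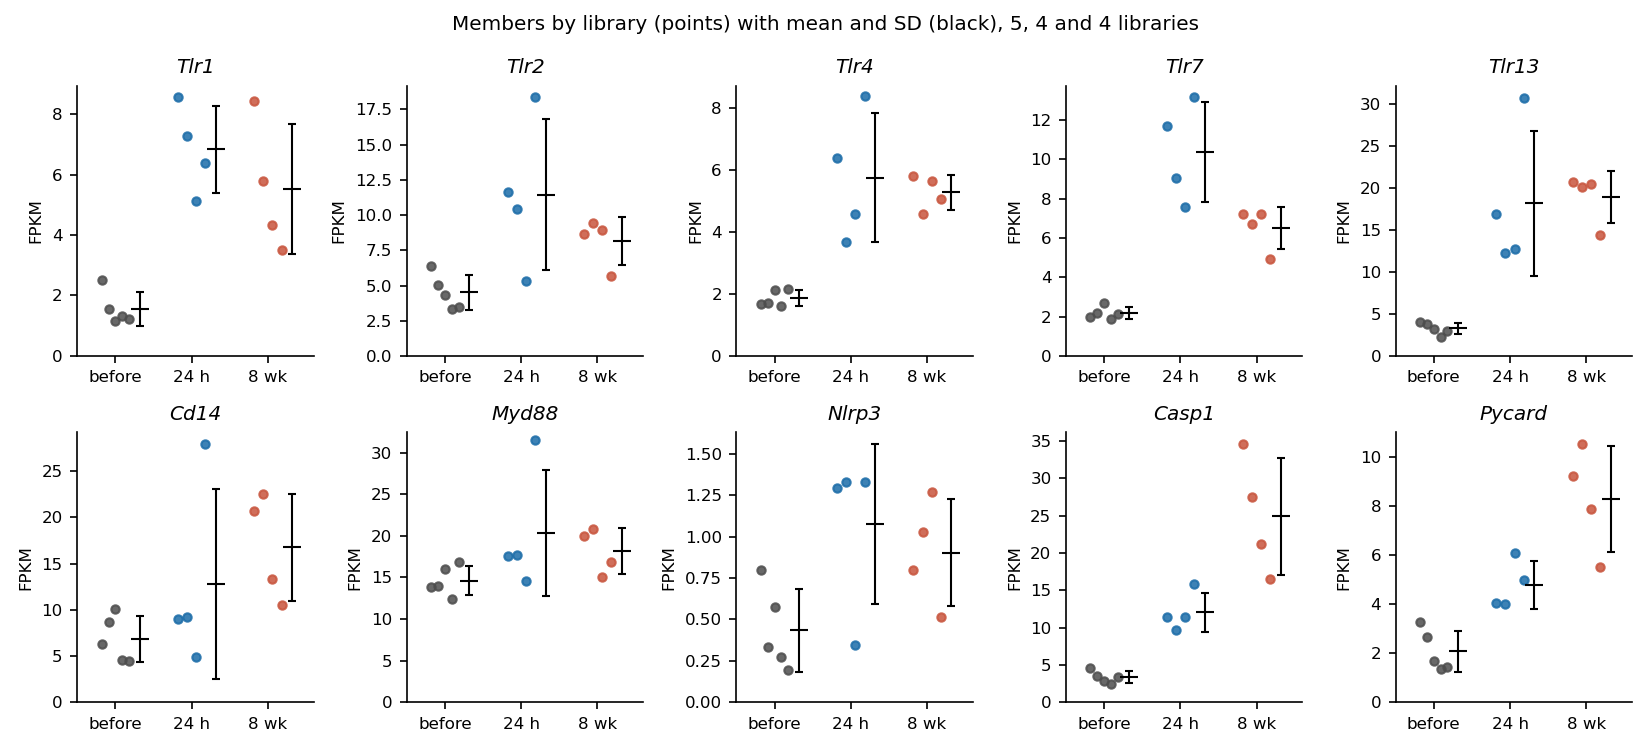
FPKM of each of the 10 genes (vertical axes, each starting at 0) in 5 libraries from before TAM, 4 from 24 h and 4 from 8 weeks after it (points, with group mean and SD in black). For Casp1 every 8-week point lies above every 24 h point and every 24 h point above every before point, while the points of Myd88 overlap between all 3 groups.

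The sequences before the start sites are shown for the 3 largest rises at 8 weeks among the 10 genes (Casp1, Pycard and Tlr13). They are also shown for some genes that did not pass or barely passed at 8 weeks (Nlrp3, Myd88, Tlr2). This grouping holds for 8 weeks only, since at 24 h the log2 fold change was 1.22 for Pycard and 1.40 for Tlr2. RefSeq promoter windows (GRCm38.p6, the assembly of mm10) were matched for 7 of the 10 genes, in 9 windows of 250 bases before a start. Of these windows 7 end at the start of a transcript listed in the deposited tables. Tlr4, Tlr7 and Cd14 are named without a sequence. Each line below runs 5′ to 3′ along the gene and ends just before the start, and capitals mark letters that match 1 of 4 motifs on either strand: GAGGAA, the core read by PU.1 and other ETS factors; TGANTCA, the AP-1 site; GAAANNGAA, read by interferon regulatory factors; and the NF-kB consensus. The Myd88 window ends 22 bases inside the listed transcript.
Casp1 chr9:5298267-5298516 (plus strand): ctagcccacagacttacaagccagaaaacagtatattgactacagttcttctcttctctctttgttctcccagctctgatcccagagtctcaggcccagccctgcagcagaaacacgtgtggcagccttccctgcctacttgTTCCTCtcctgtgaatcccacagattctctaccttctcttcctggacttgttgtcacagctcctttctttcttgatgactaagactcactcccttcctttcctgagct
Pycard chr7:127993868-127994117 (minus strand): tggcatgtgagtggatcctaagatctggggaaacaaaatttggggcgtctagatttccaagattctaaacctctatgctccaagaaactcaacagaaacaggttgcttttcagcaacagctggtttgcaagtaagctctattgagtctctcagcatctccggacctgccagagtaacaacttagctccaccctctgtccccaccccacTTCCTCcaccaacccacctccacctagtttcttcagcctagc
Tlr13 chrX:106143025-106143274 (plus strand): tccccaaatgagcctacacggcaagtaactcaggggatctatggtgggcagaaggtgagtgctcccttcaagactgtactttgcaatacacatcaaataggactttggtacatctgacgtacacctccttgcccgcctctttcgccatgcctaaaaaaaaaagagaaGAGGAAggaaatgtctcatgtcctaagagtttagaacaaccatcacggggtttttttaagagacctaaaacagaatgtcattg
Nlrp3 chr11:59542436-59542685 (plus strand): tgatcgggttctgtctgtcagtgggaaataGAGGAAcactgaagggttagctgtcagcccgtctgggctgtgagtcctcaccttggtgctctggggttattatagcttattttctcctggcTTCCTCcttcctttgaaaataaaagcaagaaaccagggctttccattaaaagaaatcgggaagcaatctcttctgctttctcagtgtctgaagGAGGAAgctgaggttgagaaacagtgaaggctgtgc
Tlr2 chr3:83841609-83841858 (minus strand): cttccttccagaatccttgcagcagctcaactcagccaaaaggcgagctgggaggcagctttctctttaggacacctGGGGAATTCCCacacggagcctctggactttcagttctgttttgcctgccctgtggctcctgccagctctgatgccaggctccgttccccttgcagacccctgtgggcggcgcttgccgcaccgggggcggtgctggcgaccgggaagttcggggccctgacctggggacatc
Myd88 chr9:119340019-119340268 (minus strand): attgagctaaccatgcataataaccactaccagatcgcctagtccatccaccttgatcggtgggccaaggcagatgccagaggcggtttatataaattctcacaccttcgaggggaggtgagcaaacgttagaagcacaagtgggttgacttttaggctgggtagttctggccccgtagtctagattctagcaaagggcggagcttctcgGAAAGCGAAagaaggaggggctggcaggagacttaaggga
GAGGAA stood in 5 of the 9 windows, where 23.3% of 32851 mouse promoter windows of the same length held it. Casp1, Pycard and Tlr13 each held it once, with its first letter at −108, −42 and −83 relative to the start, and Nlrp3 held it 3 times at its listed start. The window of Tlr1 at the start of its less used transcript also held it once, and the other Tlr1 window held no match to any of the 4 motifs. NF-kB consensus letters stood in the Tlr2 window as 2 overlapping matches, and in a second Nlrp3 window 1117 bases from the listed start, where 3.9% of all windows held them. Myd88 held GAAANNGAA once, as GAAAGCGAA, where 7.13% of all windows did. TGANTCA stood in 6.75% of all windows and was not among the letters of these 9. Matches are descriptions of letters, and no binding was measured here.

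Among receptors at the cell surface, Tlr4, the receptor of bacterial lipopolysaccharide, lies on the plus strand of chromosome 4 of mm10, from 66827811 to 66842796. It stood at 1.68, 1.70, 2.14, 1.62 and 2.15 FPKM in the before libraries, 6.39, 3.68, 4.58 and 8.37 at 24 h, and 5.80, 4.59, 5.63 and 5.07 at 8 weeks. Every later library lay above every before library. The log2 fold change was 1.67 at 24 h (SE 0.25, adjusted p = 0.0007) and 1.64 at 8 weeks (SE 0.25, adjusted p = 0.00031). The later groups overlapped, with a log2 difference of −0.02 (SE 0.26, adjusted p = 0.96) that changed sign between alternatives.

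Tlr2, which binds bacterial lipoproteins as a partner of other receptors, lies on chromosome 3 from 83836272 to 83841608 (minus strand). It stood at 6.38, 5.01, 4.33, 3.37 and 3.49 FPKM before, 11.6, 10.5, 5.33 and 18.4 at 24 h, and 8.64, 9.46, 8.94 and 5.65 at 8 weeks. The lowest later library of each time lay below the highest before library, so both pairs of groups overlapped. Tlr2 passed at 24 h with a log2 fold change of 1.40 (SE 0.33, adjusted p = 0.011) and at 8 weeks with 0.99 (SE 0.33, adjusted p = 0.032). The 8-week call was lost when any of before libraries 2, 3, 4 and 5 or 8-week libraries 1, 2 and 3 was left out, with fold changes from 0.88 to 1.15 on the log2 scale over all single libraries left out and an adjusted p up to 0.11 over all alternatives.

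Tlr1, which pairs with Tlr2 to bind lipopeptides, lies on chromosome 5 from 64924680 to 64933558 (minus strand). Its levels were 2.51, 1.54, 1.16, 1.32 and 1.21 FPKM before, 8.55, 7.28, 5.13 and 6.37 at 24 h, and 8.44, 5.78, 4.35 and 3.52 at 8 weeks. No later library was as low as the highest before library. Tlr1 was higher by a log2 fold change of 2.15 at 24 h (SE 0.30, adjusted p = 0.0005) and 1.94 at 8 weeks (SE 0.30, adjusted p = 0.00036). Of its distinct 50-base stretches in the GENCODE vM21 transcripts, 15.4% also occur in other genes, mostly in Tlr6, so reads of these neighbours may be split between them. Tlr6 itself passed as higher at both times. For each of the other 9 genes that share was 0.018% or less.

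The 2 listed Tlr1 transcripts begin at different starts, and the transcript with the upstream start (NM_001276445) took 26.9 ± 19.0% of Tlr1 FPKM before (SD, n = 5), then 13.6 ± 6.7% at 24 h and 14.3 ± 2.8% at 8 weeks (n = 4 each). Before TAM its share ran from 0.0% to 49.3%, on 72 to 174 Tlr1 reads per library, and overlapped the later groups. Tlr7 was listed as 3 transcripts, and 1 of them (NM_133211) took 82.0 ± 18.3%, 78.2 ± 7.0% and 80.8 ± 7.5% in the 3 groups. These shares are estimates by the authors' counting, and the groups overlapped.

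Cd14 encodes a surface protein that hands lipopolysaccharide to Tlr4, and lies on chromosome 18 from 36725064 to 36726815 (minus strand). It stood at 6.35, 8.74, 10.1, 4.62 and 4.46 FPKM before, 9.06, 9.28, 4.93 and 27.9 at 24 h, and 20.7, 22.6, 13.3 and 10.5 at 8 weeks. At 24 h library 4 stood above all others and the remaining 3 lay within the before range, while all 8-week libraries lay above all before libraries. Cd14 did not pass at 24 h (log2 fold change 0.97, SE 0.46, adjusted p = 0.17). That value was 0.18 without library 4 at 24 h and 1.27 with an adjusted p of 0.042 without library 3 at 24 h. At 8 weeks it passed with 1.41 (SE 0.47, adjusted p = 0.031). That call was lost without any of before libraries 1, 4 and 5 or 8-week libraries 1 and 2, with an adjusted p up to 0.13 over all alternatives.

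Both endosomal receptors rose. Tlr13, a receptor of bacterial ribosomal RNA in mice, lies on chromosome X from 106143275 to 106160493 (plus strand). It stood at 4.05, 3.82, 3.26, 2.30 and 2.91 FPKM before, 16.9, 12.2, 12.7 and 30.7 at 24 h, and 20.7, 20.1, 20.5 and 14.4 at 8 weeks. Each later library held at least 12.2 FPKM, where the before libraries reached 4.05. The log2 fold change was 2.52 at 24 h (SE 0.30, adjusted p = 0.00021) and 2.67 at 8 weeks (SE 0.30, adjusted p = 3.7e-05), with no difference past the threshold between the later times (0.15, SE 0.30, adjusted p = 0.75).

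Tlr7, a receptor of single-stranded RNA, lies on chromosome X from 167304926 to 167330571 (minus strand). Its levels were 2.00, 2.20, 2.70, 1.90 and 2.11 FPKM before, 11.7, 9.08, 7.57 and 13.2 at 24 h, and 7.21, 6.70, 7.22 and 4.95 at 8 weeks. The 3 groups did not overlap, and the 24 h libraries were the highest. Tlr7 was higher than before by a log2 fold change of 2.28 at 24 h (SE 0.22, adjusted p = 0.00011) and 1.72 at 8 weeks (SE 0.22, adjusted p = 8.7e-05). The difference between 8 weeks and 24 h was −0.57 (SE 0.23, adjusted p = 0.089) and did not pass. Without library 3 at 24 h it was −0.77 with an adjusted p of 0.018, and it also passed under 5 other alternatives, among them no scaling factor and limma on FPKM.

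Myd88, the adaptor shared by these receptors, lies on chromosome 9 from 119335988 to 119340040 (minus strand), within the span of Slc22a14 on the same strand and overlapping Acaa1a on the other by 365 bases in GENCODE vM21, so some of its reads may belong to neighbours. Its levels were 13.8, 14.02, 16.04, 12.5 and 16.8 FPKM before, 17.6, 17.7, 14.6 and 31.5 at 24 h, and 20.04, 20.9, 15.01 and 16.8 at 8 weeks. All 3 groups overlapped, and library 4 at 24 h was the highest of all. The log2 fold change was 0.52 at 24 h (SE 0.22, adjusted p = 0.13) and 0.44 at 8 weeks (SE 0.22, adjusted p = 0.14). Without library 3 at 24 h the 24 h value was 0.70 (adjusted p = 0.026), and leaving out library 4 instead gave 0.18. In a fit of before and 8 weeks alone the 8-week value was 0.40 with an adjusted p of 0.021, and it also passed without library 4 at 24 h.

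Of the inflammasome genes, Nlrp3, a sensor of ion flux and damage, lies on chromosome 11 from 59542686 to 59566956 (plus strand) and was the least abundant of the 10, on 16 to 138 reads per library. It stood at 0.800, 0.334, 0.575, 0.272 and 0.193 FPKM before, 1.29, 1.33, 0.349 and 1.33 at 24 h, and 0.799, 1.03, 1.27 and 0.516 at 8 weeks. Library 3 at 24 h lay within the before range and the other 3 lay above it, and the 8-week libraries overlapped the before libraries. The log2 fold change was 1.34 at 24 h (SE 0.50, adjusted p = 0.08) and 1.19 at 8 weeks (SE 0.50, adjusted p = 0.079). Without library 3 at 24 h the 24 h value was 1.67 with an adjusted p of 0.014. Without before library 1 the values were 1.67 at 24 h and 1.52 at 8 weeks, and both passed. Leaving out library 3 at 24 h also let the 8-week value pass, at 1.16.

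Pycard, the inflammasome adaptor, lies on chromosome 7 from 127991373 to 127993867 (minus strand). It stood at 3.28, 2.65, 1.67, 1.38 and 1.43 FPKM before, 4.05, 4.01, 6.08 and 4.98 at 24 h, and 9.23, 10.5, 7.86 and 5.52 at 8 weeks. Later libraries lay above all before libraries, and only library 4 at 8 weeks lay within the 24 h range. Pycard was higher than before by a log2 fold change of 1.22 at 24 h (SE 0.29, adjusted p = 0.01) and 2.12 at 8 weeks (SE 0.29, adjusted p = 0.00015). Without libraries 3 and 4 at 24 h the 24 h value was 1.00 with an adjusted p of 0.054. The difference of 8 weeks from 24 h, 0.91 (SE 0.30, adjusted p = 0.049), lost its call under 16 of 23 alternatives, with adjusted p up to 0.12. Of the single libraries left out, before library 1, 24 h library 3 and 8-week library 4 were those whose removal kept it.

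Casp1, the gene of caspase-1, lies on chromosome 9 from 5298517 to 5307281 (plus strand). It stood at 4.63, 3.55, 2.92, 2.40 and 3.42 FPKM before, 11.4, 9.64, 11.4 and 15.8 at 24 h, and 34.5, 27.5, 21.2 and 16.5 at 8 weeks. The 3 groups did not overlap and stood in the order of time. Casp1 was higher than before by a log2 fold change of 1.87 at 24 h (SE 0.25, adjusted p = 0.00041) and 3.01 at 8 weeks (SE 0.26, adjusted p = 8.2e-06). At 8 weeks it was higher than at 24 h by 1.14 (SE 0.26, adjusted p = 0.013), and that call held under all 23 alternatives run, with log2 values from 0.89 to 1.32 and adjusted p up to 0.049.

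**Figure D2:**
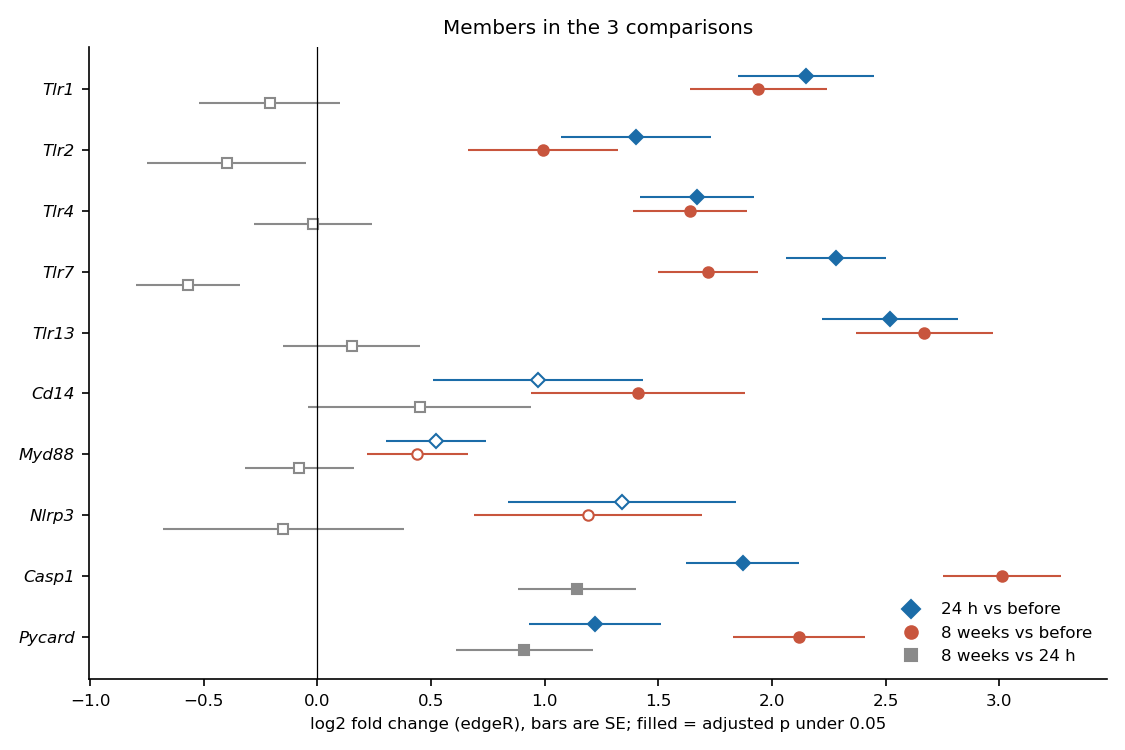
Log2 fold change of each gene (horizontal axis, edgeR, bars are SE) at 24 h against before (diamonds), at 8 weeks against before (circles) and at 8 weeks against 24 h (squares), filled where the adjusted p is under 0.05. Casp1 and Pycard have filled squares at 1.14 and 0.91, and Myd88 and Nlrp3 have open marks in all 3 comparisons.

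Non-overlap of libraries gave a like picture. At 8 weeks 7 of the 10 genes had every library above every before library, where 18.1% of all genes did, the exceptions being Tlr2, Myd88 and Nlrp3. At 24 h 6 of 10 did (Tlr1, Tlr4, Tlr7, Tlr13, Casp1 and Pycard), where 9.75% of all genes did. From 24 h to 8 weeks 1 of 10 did, Casp1, where 9.92% of all genes did, so this share is near that of all genes. In the authors' deposited table, which compares 8 weeks with before per transcript, the log2 ratios of Casp1, Tlr13 and Pycard were 2.86, 2.55 and 2.04, with q-values of 0.000632, 0.000401 and 0.0042. For Myd88 and Nlrp3 the authors' deposited table gave q-values of 0.104 and 0.0982.

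The order of levels shifted between groups. Before TAM Myd88 was highest at 14.6 ± 1.8 FPKM (SD, n = 5), and no before library of Cd14, the next gene at 6.84 ± 2.49, reached it. From Cd14 through Tlr2, Casp1, Tlr13, Tlr7, Pycard, Tlr4 and Tlr1 each gene overlapped its neighbour, and Nlrp3 at 0.435 ± 0.249 FPKM lay below all of them. At 24 h the order began with Myd88 (20.3 ± 7.6, n = 4), Tlr13 (18.1 ± 8.6) and Cd14 (12.8 ± 10.3), which overlapped. At 8 weeks Casp1 stood first in mean at 24.9 ± 7.8 FPKM (n = 4), ahead of Tlr13 (18.9 ± 3.1), Myd88 (18.2 ± 2.7) and Cd14 (16.8 ± 5.8), and all of these neighbours overlapped. Nlrp3 was lowest in every group, with 0.903 ± 0.322 FPKM at 8 weeks.

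Some libraries were the highest or lowest of their group in FPKM for many of the 10 genes. How often they were so over all genes was not counted, so this is not read as a trait of these genes. At 24 h library 4 was highest for 7 of the 10 genes and library 3 lowest for 6. The widest spread was that of Cd14 at 24 h, where the highest library was 5.65 times the lowest, followed by Nlrp3 before TAM at 4.16 times. At 8 weeks library 4 was lowest for 8 genes. Among the before libraries, library 1 was highest for 6 genes and library 4 lowest for 7. For Tlr4 the highest library was 1.33 times the lowest before TAM, 2.27 times at 24 h and 1.26 times at 8 weeks.

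**Figure D3:**
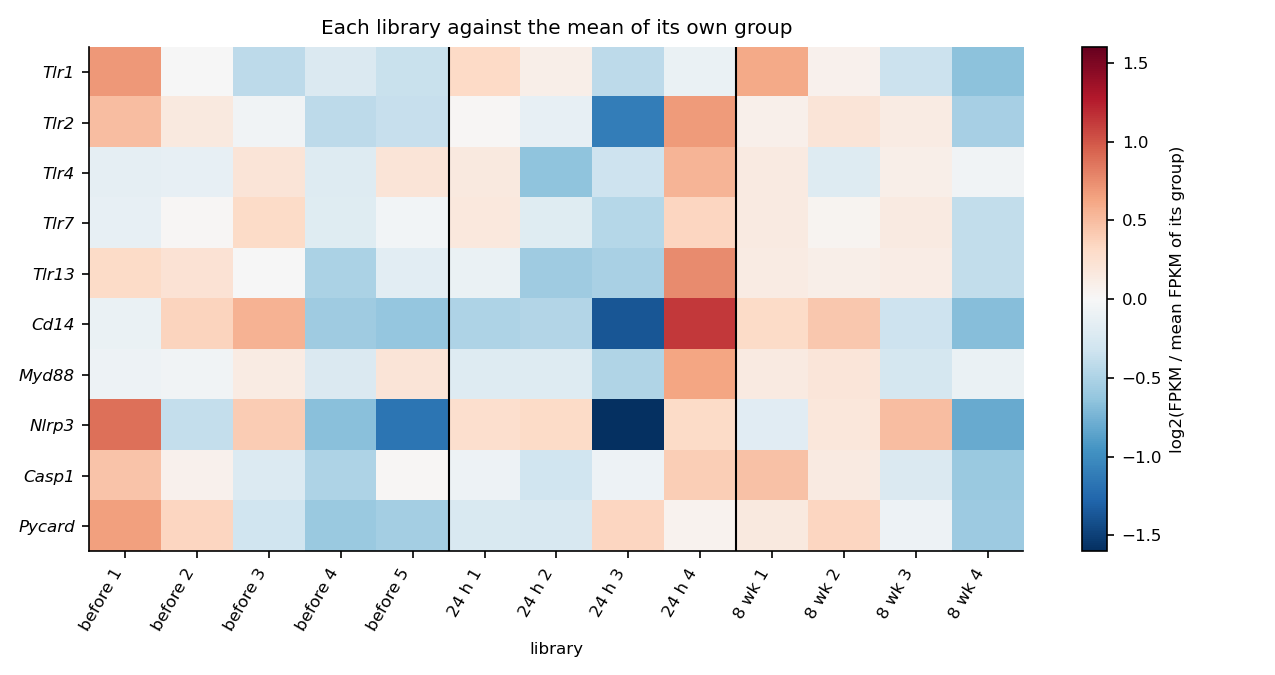
Colour gives log2 of each library's FPKM over the mean FPKM of its own group, for the 10 genes (rows) in 13 libraries (columns, groups split by lines). Library 3 at 24 h is low for Cd14 (4.93 FPKM) and Nlrp3 (0.349 FPKM), and library 4 at 24 h is high for Cd14 (27.9 FPKM).

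To set the genes beside a macrophage marker, each was divided by Csf1r, the receptor gene of the macrophage growth factor, library by library. Csf1r was chosen from the macrophage markers after its values were seen, and rose itself, from 17.6 ± 4.4 FPKM before to 57.1 ± 14.8 at 24 h and 45.2 ± 13.1 at 8 weeks. Relative to Csf1r, Casp1 stood at 0.120 to 0.295 before, 0.163 to 0.316 at 24 h and 0.329 to 0.875 at 8 weeks, so the 8-week libraries lay above all others. Tlr13 per Csf1r stood at 0.135 to 0.258, 0.207 to 0.435 and 0.319 to 0.524. For Tlr4 per Csf1r the groups overlapped, with 0.0859 to 0.156 before, 0.0623 to 0.127 at 24 h and 0.0876 to 0.147 at 8 weeks. Myd88 per Csf1r stood at 0.661 to 1.22 before, 0.281 to 0.446 at 24 h and 0.234 to 0.508 at 8 weeks, with every later library below every before library. The direction depended on the denominator. Per 1000 FPKM of all 10 macrophage markers, where Lyz2 weighs most, Casp1 stood at 4.74 to 11.8 before, 4.47 to 9.80 at 24 h and 4.00 to 6.51 at 8 weeks. On that scale Tlr4 stood at 2.27 to 7.48 before and 0.667 to 1.57 at 8 weeks. These ratios are descriptions, and no test was made of them.

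**Figure D4:**
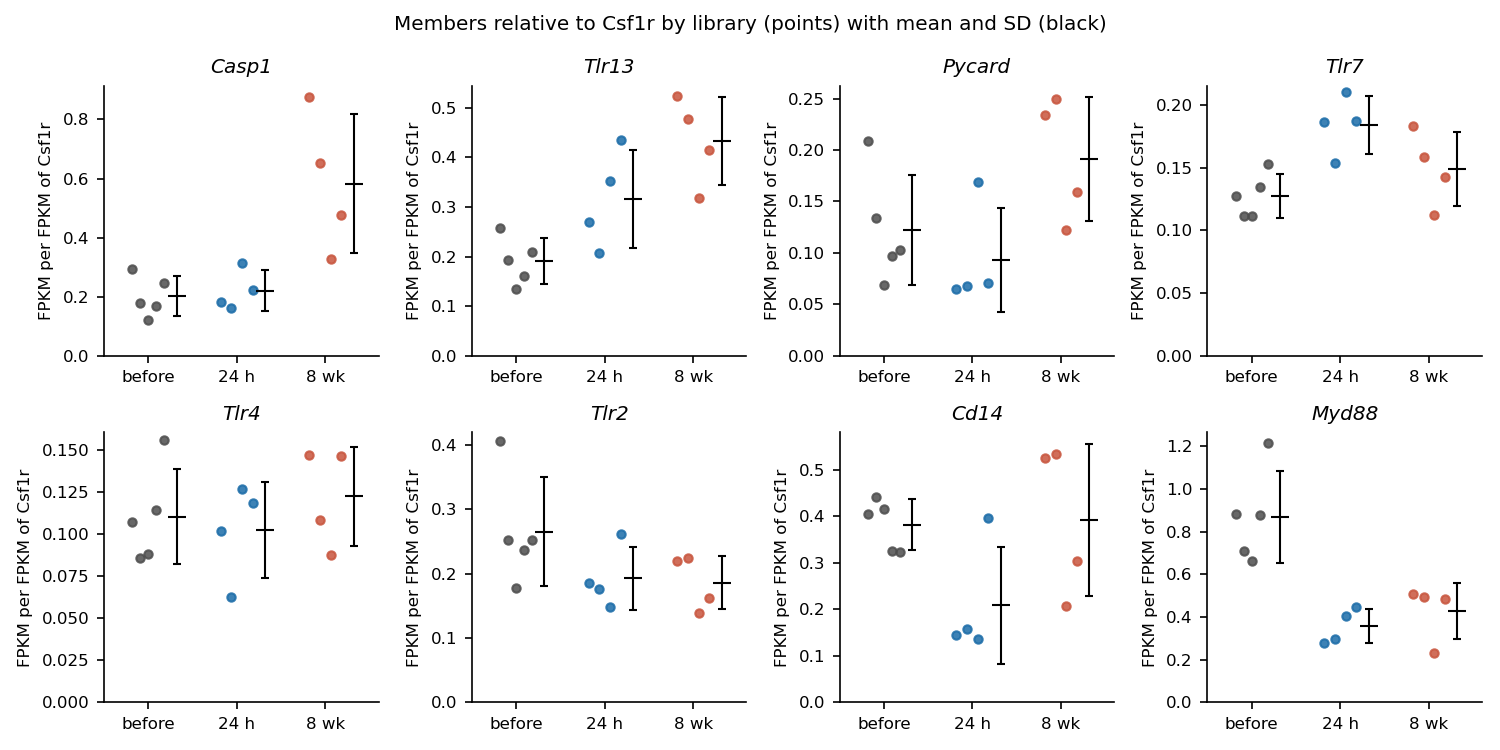
FPKM of 8 of the genes divided by the FPKM of Csf1r (vertical axes, from 0) in each library (points, with group mean and SD in black). Casp1 is highest at 8 weeks, from 0.329 to 0.875, and Myd88 is highest before TAM, from 0.661 to 1.22.

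The pathway around the 10 genes was followed in 9 further lists, with 78 of 85 genes tested. Of these 78, 36 rose and 5 fell at 8 weeks against before, where 20.5% of all genes rose and 16.4% fell. At 24 h 32 rose and 3 fell, where 12.6% rose and 6.63% fell. Between 8 weeks and 24 h 6 were higher and 8 lower, where 10.1% and 10.6% of all genes were. The same shares of all genes stand beside the counts of each list below.

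Of 6 other Toll-like receptor genes tested, 3 rose at both times (median log2 fold change 1.25 at 8 weeks and 1.15 at 24 h). Tlr8 and Tlr9, endosomal receptors of RNA and of DNA, went from 0.952 ± 0.307 and 0.448 ± 0.036 FPKM before (n = 5) to 4.47 ± 1.75 and 1.93 ± 0.71 at 24 h and 3.96 ± 1.70 and 1.08 ± 0.39 at 8 weeks (n = 4 at each time). Tlr6, a partner of Tlr2, went from 1.13 ± 0.21 to 2.41 ± 0.66 and 2.168 ± 0.351. At 8 weeks against 24 h Tlr12 was lower (log2 −1.90, SE 0.58, adjusted p = 0.037) and Tlr5, the flagellin receptor, higher (2.17, SE 0.64, adjusted p = 0.032), although Tlr5 libraries of the 2 times overlapped and its mean stayed under 1 FPKM. The Tlr5 call was lost under 12 of 23 alternatives, with log2 values from 1.45 to 2.52 with 1 library left out and adjusted p up to 0.28 over all alternatives, and it was lost without any of 24 h libraries 2 and 4 or 8-week libraries 1, 3 and 4. The Tlr12 call was lost under 8 of 23, with adjusted p up to 0.094, among them without any of 24 h libraries 1 and 2 or 8-week libraries 1, 2 and 4. Tlr11 was listed only with the before and 8-week libraries.

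Among 8 co-receptor and chaperone genes, 5 rose at 8 weeks and 3 at 24 h (medians 1.35 and 0.64). Cd180 and Ly86, whose products form a receptor complex related to Tlr4, rose most. Cd180 went from 2.39 ± 1.24 FPKM before to 22.4 ± 5.0 at 24 h and 19.1 ± 4.3 at 8 weeks, with a log2 fold change of 3.26 at 24 h (SE 0.34, adjusted p = 0.00012) and 3.14 at 8 weeks (SE 0.33, adjusted p = 2.7e-05). Ly86 went from 8.25 ± 3.22 to 37.8 ± 10.4 and 47.8 ± 17.1 FPKM. Unc93b1, which carries receptors to endosomes, went from 31.9 ± 5.1 to 59.3 ± 16.7 and 59.5 ± 9.3. Lbp, the lipopolysaccharide-binding protein gene, passed at 8 weeks (10 ± 3.1 to 30.6 ± 6.3 FPKM) and was higher there than at 24 h, with a log2 difference of 1.12 (SE 0.32, adjusted p = 0.028). That difference lost its call under 7 of 23 alternatives, among them without any of 24 h library 4 and 8-week libraries 1, 2 and 3, with adjusted p up to 0.093.

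The adaptors and kinases downstream held both rises and falls. Of 15 genes 2 rose and 4 fell at 8 weeks, and 3 rose and 2 fell at 24 h (medians −0.32 and 0.18). Of all genes 20.5% rose and 16.4% fell at 8 weeks, and 12.6% and 6.63% at 24 h, so these counts are not read as a trait of the list. Ticam2, a bridging adaptor of Tlr4, rose from 0.515 ± 0.136 FPKM before to 1.69 ± 0.34 at 24 h and 2.86 ± 0.57 at 8 weeks. Irak2, a kinase that binds Myd88, rose from 4.04 ± 0.98 to 8.29 ± 3.20 and 13.4 ± 2.7. Chuk, the gene of a kinase that releases NF-kB, fell from 49.2 ± 5.3 to 23.5 ± 4.4 and 19.1 ± 1.2, with a log2 fold change of −1.03 at 24 h (SE 0.16, adjusted p = 0.00095) and −1.23 at 8 weeks (SE 0.16, adjusted p = 0.00012). Traf3, a ubiquitin ligase of the pathway, fell at 8 weeks from 6.21 ± 0.94 to 3.05 ± 0.12, and Tab2, an adaptor of the kinase Map3k7, rose at 24 h from 22.01 ± 1.35 to 31.3 ± 6.4. Between 8 weeks and 24 h Ticam2 was higher (log2 0.89, adjusted p = 0.038), and Traf3 (−0.72, adjusted p = 0.034) and Tab2 (−0.46, adjusted p = 0.028) were lower. These 3 calls were lost under 13, 9 and 8 of 23 alternatives, with adjusted p up to 0.11, 0.087 and 0.10. Single libraries whose removal ended them were before libraries 2 and 5, 24 h libraries 1, 2 and 4 and 8-week libraries 1, 2 and 3 for Ticam2, 24 h libraries 1, 2 and 4 and each 8-week library for Traf3, and 8-week libraries 2, 3 and 4 for Tab2.

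Of 8 NF-kB subunit and interferon regulatory factor genes, 1 rose at 8 weeks and 3 at 24 h (medians −0.16 and 0.62), where 20.5% and 12.6% of all genes did. Irf5, a factor that acts with Myd88, rose at both times, from 4.27 ± 0.68 FPKM before to 18.9 ± 11.5 at 24 h and 16.7 ± 4.0 at 8 weeks. At 24 h library 4 held 36.2 FPKM and the others 12.03 to 14.1, and the log2 fold change was 2.21, or 1.62 without library 4, and passed either way. Rel, an NF-kB subunit, passed at 24 h on levels under 1 FPKM (0.388 ± 0.094 before and 0.708 ± 0.076 at 24 h, log2 0.89, SE 0.28, adjusted p = 0.041). The Rel call was lost under 15 of 23 alternatives, 10 of them with a single library left out, with adjusted p up to 0.10. Irf7, a factor of the interferon response, rose at 24 h alone by the test, from 16.8 ± 4.5 to 75.4 ± 32.2, and stood at 13.7 ± 2.5 at 8 weeks. Its 8-week level was lower than at 24 h by a log2 difference of −2.36 (SE 0.35, adjusted p = 0.0022). Rela and Nfkb2 were also lower at 8 weeks than at 24 h, with log2 differences of −0.95 (SE 0.22, adjusted p = 0.014) and −0.83 (SE 0.27, adjusted p = 0.047). The Nfkb2 call was lost under 14 of 23 alternatives, with adjusted p up to 0.13, and of the single libraries left out 24 h library 3 was the one whose removal kept it (−1.15). That library stood at 8.82 FPKM of Nfkb2, below every 8-week library, so the groups overlapped. The Rela call was lost in a fit of the 2 groups alone (adjusted p = 0.057).

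Of 10 inhibitors, 3 rose and 1 fell at 8 weeks, and 2 rose and 1 fell at 24 h (medians 0.29 and 0.16). Irak3, which lacks kinase activity and restrains the pathway, rose from 1.71 ± 0.35 FPKM before to 3.50 ± 0.72 at 24 h and 6.63 ± 1.16 at 8 weeks, and 8 weeks was higher than 24 h (log2 1.01, SE 0.23, adjusted p = 0.013). Tnfaip3, the gene of the ubiquitin-editing protein A20, rose from 1.99 ± 0.43 to 5.33 ± 2.48 and 5.74 ± 0.96. Cyld, a deubiquitinase gene, fell from 13.4 ± 0.8 to 9.77 ± 1.54 and 7.43 ± 0.23. Its 24 h call (log2 −0.43, adjusted p = 0.044) was lost under 14 of 23 alternatives, 12 of them with a single library left out, with adjusted p up to 0.13, and the value was −0.27 without library 3 at 24 h. Il1rl1, a receptor of the interleukin-1 family, passed at 8 weeks, from 0.207 ± 0.054 to 0.763 ± 0.216 FPKM (log2 2.00, SE 0.47, adjusted p = 0.0053). Tnip1, a partner of A20, was lower at 8 weeks (22.2 ± 4.2) than at 24 h (50.2 ± 15.9) by a log2 difference of −1.09 (SE 0.29, adjusted p = 0.021), a call lost without any of 24 h library 2 and 8-week libraries 1 and 4.

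**Figure D5:**
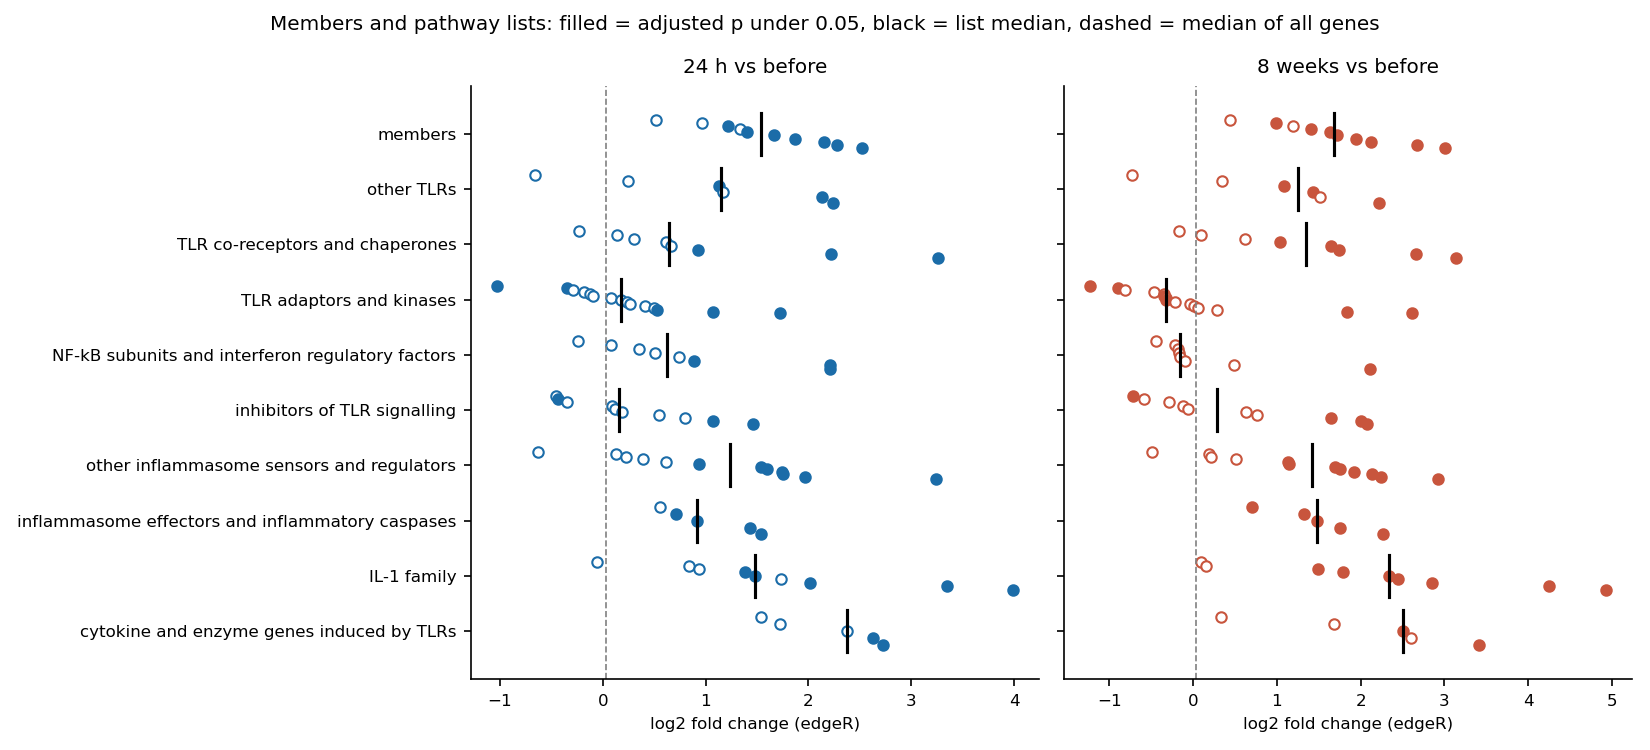
Log2 fold change (horizontal axes, edgeR) of the 10 genes and of each tested gene of the 9 pathway lists, at 24 h and at 8 weeks against before. Points are genes, filled where the adjusted p is under 0.05, black bars are list medians and the dashed line is the median of all genes (0.034 and 0.03). The list of adaptors and kinases has its median at 0.18 and −0.32, and the interleukin-1 family at 1.48 and 2.34.

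Of 12 other sensors and regulators, 8 rose at 8 weeks and 7 at 24 h (medians 1.42 and 1.24). Aim2, a sensor of DNA in the cytosol, rose from 0.971 ± 0.462 FPKM before to 3.19 ± 0.27 at 24 h and 6.72 ± 1.76 at 8 weeks, with a log2 difference of 1.18 (SE 0.32, adjusted p = 0.024) between the later times. That difference lost its call under 5 of 23 alternatives, among them without 8-week library 1 or 2, with adjusted p up to 0.08. Naip2 and Naip6, sensors of bacterial secretion and flagella proteins, rose from 1.58 ± 0.20 and 0.394 ± 0.073 to 4.44 ± 1.45 and 1.29 ± 0.41 at 24 h and to 5.37 ± 1.18 and 1.56 ± 0.22 at 8 weeks. Nlrc4, the partner of the Naip proteins, rose from 0.234 ± 0.104 to 0.904 ± 0.201 and 0.690 ± 0.164. Members of the Naip family are near copies of each other, so their reads may be split. Naip5, higher than both in mean FPKM in each group, stood at 9.51 ± 2.22, 6.00 ± 2.64 and 6.14 ± 0.20 FPKM and did not pass at 24 h (log2 −0.63, adjusted p = 0.13) or at 8 weeks (−0.49, adjusted p = 0.17), although every 8-week library lay below every before library. It was named after its values were seen. Nek7, a kinase that Nlrp3 requires, stood at 22.5 ± 1.4, 26.1 ± 3.9 and 23.6 ± 3.5 FPKM and did not pass at either time (adjusted p = 0.25 and 0.24), and was named after its values were seen.

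All 5 tested effectors rose at 8 weeks and 4 at 24 h (medians 1.48 and 0.92). Gsdmd, the gene of gasdermin D that caspase-1 cleaves, rose from 6.71 ± 1.45 FPKM before to 12.6 ± 2.0 at 24 h and 15.4 ± 2.8 at 8 weeks, a log2 fold change of 0.92 (SE 0.18, adjusted p = 0.0036) and 1.32 (SE 0.18, adjusted p = 0.00014). Casp4, which senses lipopolysaccharide in the cytosol, rose from 2.36 ± 0.30 to 6.62 ± 3.99 and 10.5 ± 5.1. Ninj1, whose product ruptures the membrane of dying cells, rose from 26.5 ± 5.2 to 68.6 ± 41.9 and 66.9 ± 15.9. At 24 h library 4 held 12.6 FPKM of Casp4 and 130.3 of Ninj1, where the other libraries held 4.43 to 4.84 and 36.9 to 54.9. The 24 h log2 fold changes were 1.54 and 1.43, and without library 4 they were 0.96 (adjusted p = 0.048) and 0.86 (adjusted p = 0.032). With the replicate block both calls were lost (adjusted p = 0.091 and 0.096). Casp8, a caspase that can join inflammasomes, rose from 13.6 ± 2.8 to 21.96 ± 2.35 at 24 h (log2 0.71, SE 0.17, adjusted p = 0.011) and 20.7 ± 3.7 at 8 weeks (0.70, SE 0.17, adjusted p = 0.0057). Gsdme passed at 8 weeks, from 0.793 ± 0.325 to 2.44 ± 0.84 FPKM.

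Of 9 tested interleukin-1 family genes, 7 rose at 8 weeks and 5 at 24 h (medians 2.34 and 1.48). The largest log2 fold change at 8 weeks in this list was that of Il1rn, the receptor antagonist gene, which went from 0.816 ± 0.593 FPKM before to 8.14 ± 4.57 at 24 h and 22.8 ± 4.4 at 8 weeks (3.35, SE 0.53, adjusted p = 0.001, and 4.93, SE 0.56, adjusted p = 4.2e-05). Il1a went from 0.281 ± 0.216 to 4.44 ± 0.80 and 4.89 ± 1.68 (log2 3.99, SE 0.52, adjusted p = 0.00035, and 4.25, SE 0.53, adjusted p = 7.4e-05). Listed transcripts held at least 16 reads in at least 4 before libraries or at least 3 libraries at 8 weeks. Before TAM Il1a and Il18r1 stood at 0.0505 to 0.619 and 0.0719 to 0.441 FPKM, so they may be listed through later libraries alone. The part of this in their fold changes was not tested. Il18, a cytokine that caspase-1 matures, went from 2.40 ± 0.77 to 6.79 ± 5.20 and 11.03 ± 2.78, and passed at both times. Its 24 h call (log2 1.48, adjusted p = 0.029) was lost under 9 of 23 alternatives, among them without library 3 at 24 h, which held 14.2 FPKM where the others held 1.98 to 5.56 (0.92, adjusted p = 0.069), and without any of before libraries 3, 4 and 5. Il1r1, the interleukin-1 receptor gene, went from 3.02 ± 0.74 to 7.98 ± 6.65 and 7.72 ± 1.20 and passed at both times. At 24 h library 3 held 17.8 FPKM of it, and its log2 fold change of 1.38 was 0.73 (adjusted p = 0.04) without that library, with the call lost under 8 of 23 alternatives, among them without before library 4 or 5. Il1b, the other such cytokine, stood at 1.45 ± 1.27, 4.58 ± 3.46 and 7.15 ± 3.78, and passed at 8 weeks (2.44, SE 0.71, adjusted p = 0.017) but not at 24 h (1.73, SE 0.70, adjusted p = 0.10). The 8-week call was lost without library 1 at 8 weeks, which held 12.7 FPKM where the others held 4.18 to 5.98 (log2 2.02, adjusted p = 0.058). Il1b is named although it is not among the 4 lowest p-values of its list, because caspase-1 acts on its product. Il18bp, which binds interleukin-18, stood at 12.6 ± 7.0 FPKM before, 49.9 ± 30.1 at 24 h and 12.2 ± 1.9 at 8 weeks. It passed as higher at 24 h (log2 2.02, SE 0.45, adjusted p = 0.008), although its libraries overlapped, and did not differ from before at 8 weeks (0.09, SE 0.45, adjusted p = 0.89). At 8 weeks it was lower than at 24 h (−1.92, SE 0.49, adjusted p = 0.018). Il18r1, a receptor subunit, was higher at 8 weeks than at 24 h (log2 2.01, SE 0.54, adjusted p = 0.023). The Il18r1 call was lost without 24 h library 2 or 8-week library 1, with adjusted p up to 0.062.

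Of 5 tested cytokine and enzyme genes that these receptors induce, 2 rose at both times (medians 2.51 and 2.38). Ccl3 and Ccl4, chemokine genes, went from 1.67 ± 1.70 and 1.48 ± 1.42 FPKM before to 10.8 ± 3.9 and 8.98 ± 4.99 at 24 h and to 16.3 ± 4.5 and 7.72 ± 2.67 at 8 weeks. Tnf stood at 0.269 ± 0.254, 1.36 ± 0.95 and 1.54 ± 1.27 FPKM and did not pass (adjusted p = 0.14 at 24 h and 0.071 at 8 weeks). Il6, Il12b, Cxcl1 and Cxcl2 were listed only with the before and 8-week libraries, so they are given as values. Before TAM Il6 stood at 0.0, 0.0, 0.0644, 0.0 and 0.0 FPKM, against 2.44, 5.09, 2.01 and 3.29 FPKM at 8 weeks. Cxcl1 stood at 0.204 to 0.771 before and 1.77 to 4.78 at 8 weeks, Cxcl2 at 0.138 to 0.938 and 1.15 to 3.97, and Il12b at 0.0 to 0.0650 and 0.249 to 0.765. Each had its 8-week libraries above its before libraries. Listed transcripts held at least 16 reads in at least 4 before libraries or at least 3 libraries at 8 weeks. Il6 and Il12b, at 0 in several before libraries, could be listed only through 8 weeks. The listing favours this order in genes so low before, so it is not read as a result.

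Genes whose pattern over the 13 libraries was nearest to each member were found by the root mean square difference between centred log2 CPM values. Nearest to Tlr13 was Mpeg1 (0.19 on the log2 scale), followed by C3ar1 (0.20) and AI607873 (0.21). Casp1 lay nearest to Aim2 (0.25), Ncf4 (0.27) and Cybb (0.28), and Pycard to Map4k1 (0.25), Rftn1 (0.26) and Fblim1 (0.26). Genes near Tlr7 included Fbn1 (0.22) and Ctsc (0.24), and Tlr4 lay nearest to Vav3 (0.22), Rab8b (0.22) and Fli1 (0.29). Tlr1 lay nearest to Epsti1 (0.21), Parvg (0.23) and Lair1 (0.24), Tlr2 to Tbc1d9 (0.19), Msn (0.24) and Cstb (0.24), and Cd14 to Relt (0.24), Slc2a6 (0.29) and Srgn (0.33). Myd88 lay nearest to Pdgfa (0.14), Tmed2 (0.14) and Riok3 (0.16). The noisiest gene, Nlrp3, had its nearest at 0.41 (Cstb), 0.42 (Lilra5) and 0.46 (C1qa). Among the 10 genes themselves the closest pair was Tlr4 and Tlr7 (0.35), and Casp1 and Tlr13 differed by 0.42.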

How the data were processed

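RNA from 13 adrenal libraries was read from tables of RefSeq transcripts. The kit was a stranded one for mRNA, per the labels' protocols. The submitters' processing notes name bcl2fastq 2.17, TopHat2 2.0.14 and the build mm10, also called GRCm38. The counting program and its strand setting are not given in the sources used here. The deposited tables hold an expected count and an FPKM (a level scaled by transcript length and library total) for each transcript and library, per the file headers. A further deposited table of the authors gives, per the file headers, log2 values with their log2 ratio of 8 weeks over before, and a p-value with its q-value. The libraries' listed transcripts held 86.5% to 93.0% of the reads that FPKM imply. Of 19655 transcripts listed with before and 8 weeks and 19191 listed with 24 h, the 18738 in common gave 14078 genes. Of the 19655, 100% held at least 16 reads in at least 4 before libraries or at least 3 libraries at 8 weeks. The 24 h listing was not checked in this way. Shares of all genes are shares of genes so listed, and a gene low before may be listed through later libraries alone.

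Expected counts were summed per gene, rounded and tested with edgeR 4.0.16 in R 4.3.3 (quasi-likelihood test, TMM scaling, filterByExpr, Benjamini-Hochberg over all 14078 genes, threshold 0.05) in 1 fit of the 3 groups without a block. The SE is the log2 fold change divided by the root of F. FPKM per gene is the sum over its transcripts, and errors are SD over libraries. The fit was tested on simulated data. Counts within a group differed by more than sampling noise for every pair of libraries, so none was counted as a duplicate. Alternatives used DESeq2 1.42.0 and limma 3.58.1, other scaling and filters, a replicate block, and each library left out in turn.

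The 10 genes, the 9 pathway lists and the 12 marker lists were chosen with earlier results of these data known. The genes named from a list are its called genes in order of p, at most 4 per list and comparison, and Il1b, Naip5, Nek7, Tnf and the cytokine genes without a test were named outside that rule with their values known. Nearest genes are the 3 with the smallest root mean square difference. The result of 1 gene that this rule names is not reported here. The symbols Dfna5 and Emr1 in the files were read as Gsdme and Adgre1. Motifs were sought on both strands of RefSeq promoter windows.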

Additional observations from a re-analysis of the deposited data

Results flagged for a closer look

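Of 30 sets of libraries (10 genes in 3 groups), 3 held a library far from the others of its group by Dixon's criterion, and chance flags about 1 in 20. Tlr1 stood at 2.51 FPKM in before library 1, where the next before library stood at 1.54. Tlr13 stood at 14.4 FPKM in library 4 at 8 weeks, where the other 3 libraries lay between 20.1 and 20.7. Nlrp3 stood at 0.349 FPKM in library 3 at 24 h, where the next library stood at 1.29. Without that library Nlrp3 passed at 24 h, with a log2 fold change of 1.67 and an adjusted p of 0.014. Library 3 at 24 h is the same library that held the least medulla, fat cell and red blood cell marker RNA, and the part of this in the Nlrp3 value was not tested.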

How the results depend on the processing

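Over 24 alternatives for 8 weeks against before and 23 for each other comparison, each of the 10 genes kept its direction against before. At 8 weeks 215 of 240 values kept direction and call, with 14 calls lost and 11 gained, and at 24 h 219 of 230 did, with 2 lost and 9 gained. Pathway genes were tallied where named by order of p, at most 4 per list and comparison. Of these, 30 kept all 720 values at 8 weeks, 44 of 690 values lost their call at 24 h and 83 of 322 between 8 weeks and 24 h. The tally favours genes with low p, and leaves out genes named otherwise. Among those left out are Il1b at 8 weeks and Il18 at 24 h, whose calls were lost under some alternatives. The genes passing of the 10 numbered 6 to 9 at 8 weeks and 7 to 10 at 24 h with 1 library left out. Between 8 weeks and 24 h that number was 1 to 3 with 1 library left out, and 1 in a fit of the 2 groups alone, with the replicate block and without libraries 3 and 4 at 24 h. In that comparison Tlr4 changed sign with the replicate block (0.01), with limma voom quality weights (0.09) and without libraries 3 and 4 at 24 h (0.13), and ran from −0.21 to 0.23 with 1 library left out. Myd88 changed sign with quality weights (0.10) and without libraries 3 and 4 at 24 h (0.09), and ran from −0.29 to 0.23. Tlr13 was −0.05 without library 3 at 24 h and library 1 at 8 weeks and ran from −0.07 to 0.55, and Nlrp3 ran from −0.50 to 0.05. The cause was not tested.

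Over all genes 5193 were called at 8 weeks against before, 7895 with all transcripts listed for those groups and 8101 with quality weights. At 24 h 2708 were called, 1312 with the replicate block, 5378 with quality weights and 4087 without library 3 at 24 h and library 1 at 8 weeks. Between 8 weeks and 24 h 2923 were called, 973 in a fit of the 2 groups, 1661 with the replicate block and 1782 to 4300 with 1 library left out. Of the calls at 8 weeks against before 55.5% were higher, against 44.2% with no scaling factor, 44.1% with limma on log2(FPKM + 1) and 43.1% on log2(FPKM + 0.1). Between 8 weeks and 24 h 48.9% were higher, against 36.1% with no scaling factor. With no scaling factor the median of all genes moved from 0.03 to −0.097 at 8 weeks against before, and the 10 genes kept their calls. The filter on low counts removed no gene. The transcripts listed with before and 8 weeks had all met a limit of 16 reads already, so this does not show that low counts play no part.

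Correlations between the deviations of same-numbered libraries of different groups ran from −0.123 to 0.261. Differently numbered libraries were not compared in this way, so these values cannot decide whether library numbers pair the samples. With the replicate block 6 of the 10 genes passed at 8 weeks and 6 at 24 h, Tlr2 losing its call at both times and Cd14 at 8 weeks.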
